A study of Homo sapiens with 8 samples.

Results

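The insulin-like growth factor (IGF) system was followed through 10 genes, the ligand IGF1, the receptors IGF1R and IGF2R, and the IGF-binding proteins IGFBP1 to IGFBP7. Their rows were found by symbol among the 60558 genes in the expression tables. The 10 members themselves were chosen with earlier results of these data known. Of these, 9 reached 1 FPKM (fragments per kilobase of transcript, scaled by library size) in at least 2 libraries and were tested. IGFBP1 was listed at 0 in all 8 libraries. The cells were human intestinal epithelial cells (hIECs) differentiated from H9, a single line of human embryonic stem cells, and poly-A RNA was sequenced in 4 groups of 2 libraries. Normal hIECs (labelled NT) had neither agent, and normal hIECs with PM10 (labelled PM10) had airborne particulate matter at 100 µg/ml for the final 7 days. Inflamed hIECs (labelled IT) were given the cytokines IFNγ and TNFα, each at 50 ng/ml, over 10 days, and PM10-treated inflamed hIECs (labelled IT-PM10) had the cytokines together with the same PM10 dose. Every label gives a treatment of 10 days. The labels do not state that the 2 libraries of a group came from separate cultures, so the p-values measure only the spread between these libraries, which may be technical.

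IGF1 and its relative IGF2 are secreted growth factors that act through IGF1R, a receptor tyrosine kinase feeding the PI3K-AKT and MAPK pathways. IGF2R, the cation-independent mannose 6-phosphate receptor, takes up IGF2 for breakdown and sorts lysosomal enzymes. IGF-binding proteins hold the ligands in the medium and matrix, and proteases that cut them set the ligands free. In the gut, the IGF system is known for its part in crypt growth, repair and fibrosis, and mesenchymal cells are a known source of IGFs and binding proteins.

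The epithelial label was checked against defining markers. Of 15 epithelial markers, 8 were listed at 0 in every library (CLDN3, ESRP1, CDH17, VIL1, CDX2, MUC2, CHGA and LYZ) and 4 reached the FPKM minimum, while all 12 mesenchymal markers reached it. The cells are therefore called hIECs here by their label only. The paper, in contrast, reports CDX2, LYZ, MUC2, CHGA and VIL1 in its hIECs by qPCR and by immunostaining. The 12 mesenchymal markers summed to 3902 to 3971 FPKM in normal hIECs, 3677 to 3688 with PM10, 3954 to 3987 in inflamed hIECs and 3276 to 3305 with both treatments. The 15 epithelial markers summed to 644 to 654, 601 to 638, 352 to 358 and 295 to 313 FPKM in the same order. Most of that sum came from 2 keratins, KRT8 (means of 378, 372, 215 and 190 FPKM) and KRT18 (266, 243, 134 and 104). Of the 4 tested, 2 were called lower and 1 higher with cytokines, both without and with PM10. The higher one was LGR5, at 2.32 FPKM in normal and 5.47 in inflamed hIECs (log2 change 0.97, limma adjusted p = 0.00013). The paper instead reports reduced LGR5 by qPCR in cytokine-treated cells. Hepatocytes secrete most circulating IGF1 and IGFBP1, and 6 of 6 hepatocyte markers were listed at 0. All 13 genes of a cytokine response list were higher in both comparisons with cytokines. CYP1B1, a target of the aryl hydrocarbon receptor, was higher with PM10 by 3.14 on the log2 scale in normal and by 2.76 in inflamed hIECs (limma adjusted p = 3.82e-06 and 9.78e-06). It was also higher with cytokines, by 2.345 without PM10 and 1.968 with it (limma adjusted p = 2.98e-07 and 4.8e-07), so it was not particular to PM10. With PM10, CYP1B1 was the most changed of a list of 8 PM10 response genes, of which 5 were tested and CYP1A1, CYP1A2 and AHRR were not. Of the 5, 4 were called higher in normal and 2 in inflamed hIECs. The other one in inflamed hIECs, besides CYP1B1, was TIPARP (log2 change 1.088, limma adjusted p = 0.00137). In inflamed hIECs NQO1 (0.12, limma adjusted p = 0.286), HMOX1 (0.03, 0.836) and GCLM (0.17, 0.196) did not pass the threshold. If the lowest FPKM above 0 in each library (0.164 to 0.228) stands for a mean depth of 1, the libraries held 4.38 to 6.11 gigabases of aligned sequence, and mitochondrial genes took 15.5% to 24.2% of the FPKM sum. That share was 17.02% in normal library 1 and 24.2% in normal library 2, and the 2 normal libraries also lay farther apart over all genes (median SD 0.0854 on the log2 scale) than those of the other 3 groups (0.0489 to 0.0527).

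The RefSeq promoter table of build GRCh38.p14 held 8 of the 10 members, with 11 transcription starts. IGFBP1 and IGFBP7 had no entry. The 250 bases upstream of each start were searched on both strands for 8 motifs, and 3 windows are shown because IGFBP3 and IGFBP5 rose and IGFBP2 fell with cytokines. Capitals mark the matches, which are a GC box (GGGCGG or its reverse complement) and the dioxin response element core (GCGTG or its reverse complement) in IGFBP3, overlapping NF-kB matches in IGFBP5 and a GC box in IGFBP2. The windows read 5′ to 3′ along each gene's own strand, at chr7:45921273-45921522 (minus) for IGFBP3, chr2:216695550-216695799 (minus) for IGFBP5 and chr2:216632578-216632827 (plus) for the most upstream IGFBP2 start.
IGFBP3: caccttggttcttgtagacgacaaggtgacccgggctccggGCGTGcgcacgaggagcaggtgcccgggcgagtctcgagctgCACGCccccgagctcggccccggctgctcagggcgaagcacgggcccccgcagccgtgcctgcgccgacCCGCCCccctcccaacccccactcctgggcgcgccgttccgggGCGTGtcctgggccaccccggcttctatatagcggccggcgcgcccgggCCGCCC
IGFBP5: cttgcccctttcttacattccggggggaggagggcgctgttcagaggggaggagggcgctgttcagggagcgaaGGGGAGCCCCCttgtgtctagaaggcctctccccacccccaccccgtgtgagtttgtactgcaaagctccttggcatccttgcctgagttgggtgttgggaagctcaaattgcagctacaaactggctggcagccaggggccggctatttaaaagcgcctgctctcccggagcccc
IGFBP2: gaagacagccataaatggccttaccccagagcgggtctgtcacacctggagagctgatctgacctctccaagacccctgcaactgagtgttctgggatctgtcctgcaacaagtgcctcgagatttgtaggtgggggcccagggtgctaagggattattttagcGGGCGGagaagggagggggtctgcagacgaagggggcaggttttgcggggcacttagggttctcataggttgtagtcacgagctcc
The IGFBP3 window held 3 GCGTG cores and 2 GC boxes, and the IGFBP5 window held 2 NF-kB matches that overlap each other. Of 35116 promoters searched the same way, 32.2% held GCGTG, 42.6% GGGCGG and 9.96% the NF-kB motif, which also matched once in IGFBP6 and in another IGFBP2 window. None of the 11 member windows held the gamma-activated site TTCNNNGAA (6.57% of all promoters), the interferon response element (3.02%) or the AP-1 motif TGANTCA (6.57%). IGF1R held 4 GCGTG cores. The IGFBP2 window with the NF-kB match, at chr2:216633170-216633419 and not shown, also held 1 GCGTG core and 1 GC box. The FOXO motif GTAAACA (2.98% of promoters) lay once in an IGF1 window and once in the IGFBP6 window, and TATAAA (10.7%) was found for IGFBP4 only. A match describes the letters of the window and is no evidence of binding.

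By the GENCODE 44 annotation, IGFBP2 (chr2:216632828-216664436, plus strand) and IGFBP5 (chr2:216672105-216695549, minus strand) lie tail to tail with 7668 bases between them. IGFBP1 (chr7:45888360-45893660, plus strand) and IGFBP3 (chr7:45912245-45921874, minus strand) lie tail to tail with 18584 bases between them, and neither gap holds another protein-coding gene. Each pair thus joins genes that differed in these cells, IGFBP1 listed at 0 beside abundant IGFBP3, and IGFBP2 lower with cytokines beside IGFBP5 higher. The other members lie at chr12:102395874-102481744 (IGF1), chr15:98648539-98964530 (IGF1R), chr6:159969082-160113507 (IGF2R), chr17:40443450-40457725 (IGFBP4), chr12:53097436-53102345 (IGFBP6) and chr4:57030773-57110385 (IGFBP7). The libraries carried no strand information, so reads of a member and an overlapping gene on the opposite strand cannot be told apart. Genes sharing exon sequence with a member reached at most 0.352 FPKM for IGF1, 1.02 for IGF2R and 31.0 for IGFBP7 and were listed at 0 for IGFBP5, and the other members shared none.

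The 6 detected binding proteins stood above IGF1, IGF1R and IGF2R in every group, most of them by a wide margin. The gap was narrow for IGFBP6 with both treatments, at 21.8 FPKM against 16.5 for IGF2R. In normal hIECs the order by mean FPKM was IGFBP2 (671), IGFBP7 (533), IGFBP3 (401), IGFBP4 (128), IGFBP5 (116), IGFBP6 (48.1), IGF1 (11.5), IGF2R (8.26) and IGF1R (3.99). No neighbours in this order overlapped between their libraries. With PM10 alone IGFBP2 still led, IGFBP3 came before IGFBP7, and IGFBP5 and IGFBP4 were the only neighbours in any group whose libraries overlapped. In both inflamed groups IGFBP3 and IGFBP7 led and IGF2R stood above IGF1. IGFBP5 (246 FPKM) stood above IGFBP2 (220) only in PM10-treated inflamed hIECs. Among all genes of a library, IGFBP3 ranked 158 and 176 in normal hIECs, 169 and 170 with PM10, 19 in both inflamed libraries, and 7 and 8 with both treatments.

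**Figure D1:**
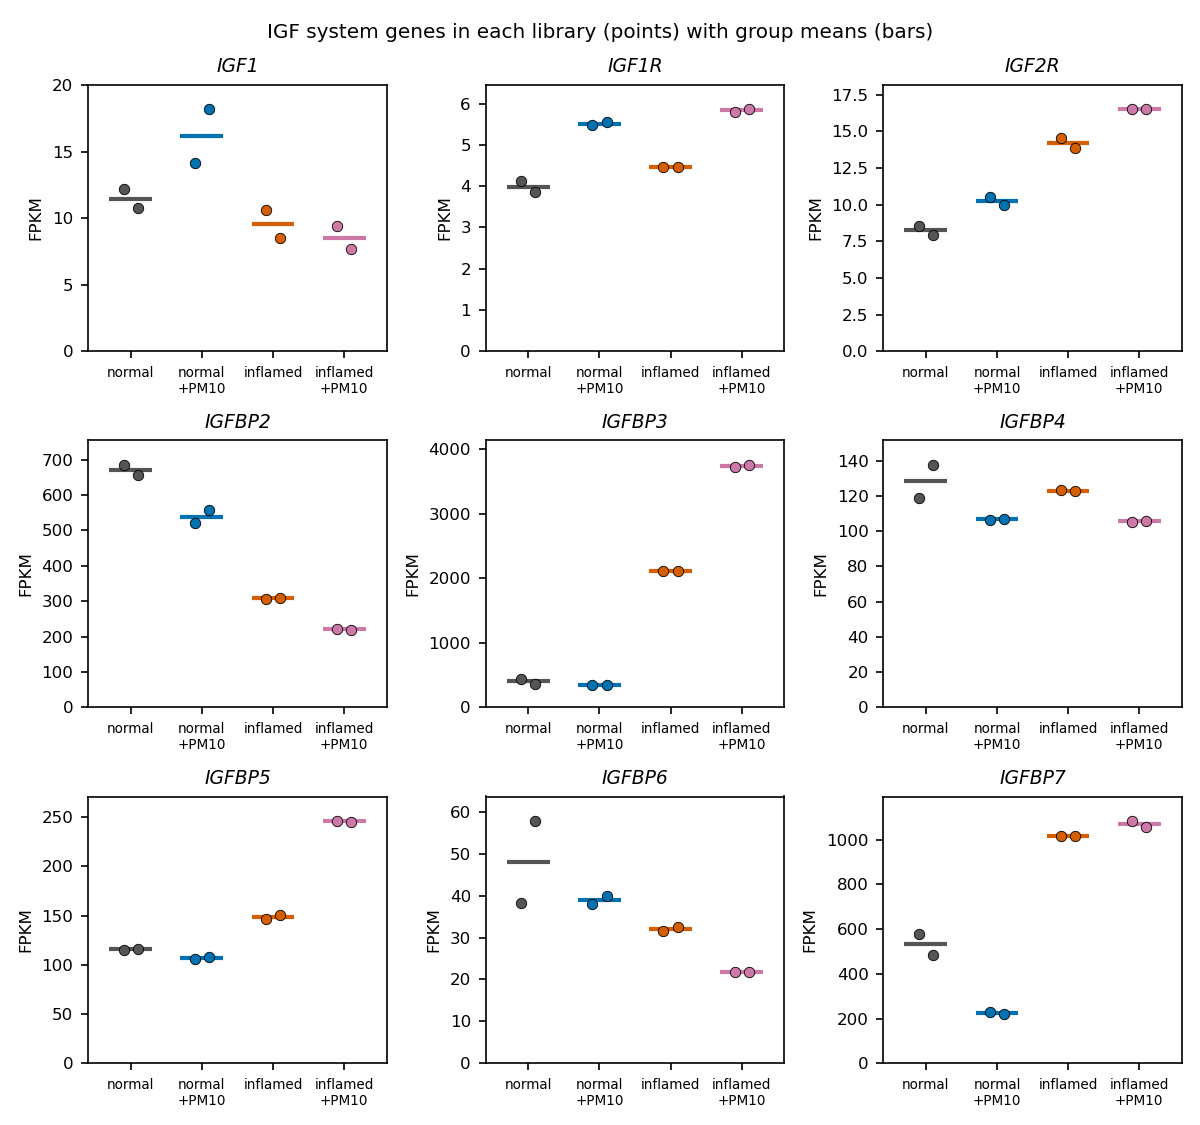
FPKM of the 9 tested members in each of the 8 libraries (points) with the mean of each group of 2 (bars), 1 panel per gene with its own linear axis from 0. IGFBP3 rises from 338 to 445 FPKM in the 4 libraries without cytokines to 2111 or more in the 4 with cytokines, while IGFBP2 falls from 519.8 or more to 309 or less.

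The 6 detected binding proteins together summed to 1982 and 1813 FPKM in normal hIECs, 1344 and 1369 with PM10, 3744 and 3742 in inflamed hIECs, and 5397 and 5404 in PM10-treated inflamed hIECs. The summed level was thus lower with PM10 in normal hIECs and higher with PM10 in inflamed hIECs, with no overlap of libraries in either pair of groups. IGFBP3 made up 21.1% of this sum in normal hIECs, 25.1% with PM10 alone, 56.5% with cytokines alone and 69.2% with both. IGFBP2 went from 35.4% and 39.7% to 8.22% and 4.08% over the same groups. IGFBP7 held 28.0%, 16.6%, 27.2% and 19.8%. The sum of binding protein FPKM was 162.7 and 168.3 times the IGF1 value in normal hIECs, 94.99 and 75.02 times with PM10, 354 and 438 times in inflamed hIECs, and 572 and 703 times with both treatments. These are ratios of transcript levels per length and say nothing of protein amounts. They leave out the other ligand, IGF2, whose means were 192, 133, 8.58 and 5.06 FPKM in the same order of groups.

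**Figure D2:**
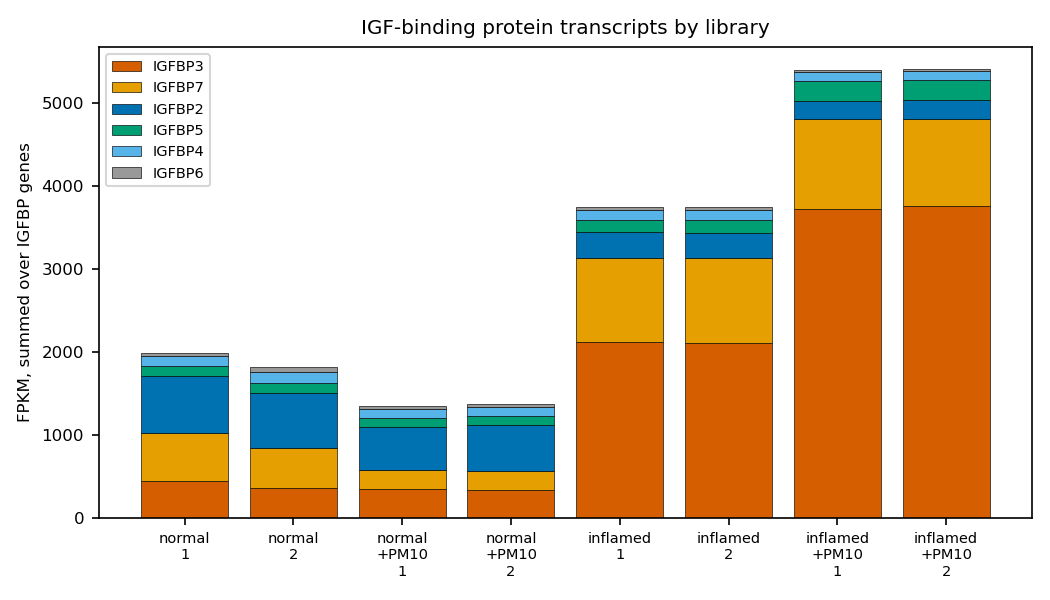
FPKM of the 6 detected IGF-binding protein genes stacked for each of the 8 libraries on a linear axis from 0. The stacks reach 1344 to 1982 FPKM without cytokines and 3742 to 5404 with them, and the IGFBP3 segment is the largest in the 4 libraries with cytokines.

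Across the 4 simple comparisons, cytokines moved more members than PM10 did. PM10 in normal hIECs called 4 of 9 members (2 higher, 2 lower), where 9.23% of all 14206 tested genes were called (5.51% higher, 3.72% lower). PM10 in inflamed hIECs called 4 of 9 (3 higher, 1 lower), against 15.2% of all genes (6.22% higher, 9.02% lower). Cytokines without PM10 called 6 of 9 (4 higher, 2 lower), against 56.2% (25.9% higher, 30.3% lower). Cytokines with PM10 called 7 of 9 (4 higher, 3 lower), against 65.4% (25.8% higher, 39.6% lower). The members' shares of 66.7% and 77.8% in the cytokine comparisons were thus close to those of all genes, while the 44.4% called with PM10 in normal and in inflamed hIECs lay above them. The median size of the members' log2 differences was 0.28, 0.32, 0.54 and 0.84 in the same order, beside 0.14, 0.14, 0.30 and 0.38 over all tested genes. The comparison of PM10 in normal hIECs was the least firm, since a limma fit on its 4 libraries alone called 0 of 9 members (6 at an unadjusted p under 0.05) and 23 genes in all. Normal hIECs are the reference of 2 of these comparisons, so their values are not independent of each other. In bulk samples, fewer cells of a type and less RNA per cell cannot be told apart.

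IGF1, the ligand, was low beside its binding proteins and fell with cytokines when PM10 was present. It measured 12.2 and 10.8 FPKM in normal hIECs, 14.2 and 18.2 with PM10, 10.6 and 8.54 in inflamed hIECs, and 9.43 and 7.68 with both treatments. The 2 PM10-treated normal libraries were the highest of the 8, and the inflamed groups overlapped each other. In the presence of PM10, cytokines lowered IGF1 by 1.89-fold (log2 change -0.84, SE 0.15, limma adjusted p = 0.00184). Without PM10 the cytokine difference was -0.24 (limma adjusted p = 0.201). PM10 gave a difference of 0.45 in normal hIECs (limma adjusted p = 0.098) and -0.14 in inflamed hIECs (limma adjusted p = 0.548). These 3 differences were loosely fixed, since leaving out 1 library moved that with cytokines without PM10 between -0.39 and -0.10 (without inflamed library 1 and 2), that with PM10 in normal hIECs between 0.28 and 0.63 (without PM10-treated normal library 2 and 1), and that with PM10 in inflamed hIECs between -0.28 and -0.0036 (without inflamed library 2 and 1). The interaction of -0.60 (95% interval -1.1 to -0.10, limma adjusted p = 0.145) did not pass the threshold.

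IGF1R, the signalling receptor, was higher with PM10 whether or not cytokines were present and its cytokine differences did not pass the threshold. Its values were 4.12 and 3.86 FPKM in normal hIECs, 5.49 and 5.54 with PM10, 4.46 and 4.48 in inflamed hIECs, and 5.80 and 5.87 with both treatments. All 4 libraries with PM10 lay above all 4 without it. The log2 change with PM10 was 0.39 (SE 0.0616, 1.38-fold, limma adjusted p = 0.0142) in normal and 0.32 (SE 0.0616, 1.31-fold, limma adjusted p = 0.0154) in inflamed hIECs. The first call was lost without either PM10-treated normal library (limma adjusted p = 0.0868 and 0.0873), and the second without any 1 of the 4 inflamed libraries (limma adjusted p = 0.0796 to 0.0884), though the change stayed between 0.32 and 0.39. The cytokine differences were 0.13 and 0.07 (limma adjusted p = 0.105 and 0.347), the first of which passed after rescaling without mitochondrial genes (0.19, limma adjusted p = 0.0477). The interaction was -0.06 (95% interval -0.27 to 0.14).

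IGF2R, which clears IGF2, rose with cytokines. It stood at 8.57 and 7.95 FPKM in normal hIECs, 10.5 and 9.94 with PM10, 14.5 and 13.9 in inflamed hIECs, and 16.5 and 16.5 with both treatments. The 4 groups formed 4 separate levels, with no overlap between any of them. Cytokines raised IGF2R by 1.72-fold without PM10 (log2 change 0.72, SE 0.0608, limma adjusted p = 5.64e-05) and by 1.61-fold with it (0.64, limma adjusted p = 7.14e-05). PM10 changed IGF2R by 0.28 in normal hIECs (limma adjusted p = 0.0345), and the difference of 0.21 in inflamed hIECs did not pass the threshold (limma adjusted p = 0.0625). Both of these PM10 results sat near the threshold. The call in normal hIECs was lost without normal library 2 (limma adjusted p = 0.0955), either PM10-treated normal library (0.174 and 0.105) or any 1 of the 4 inflamed libraries (0.0642 to 0.0716), and the difference in inflamed hIECs passed without either normal library (0.0381 and 0.038), after median centring (0.043), quantile normalization (0.0485) or rescaling without mitochondrial genes (0.0435), and with group weights (0.0263).

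**Figure D3:**
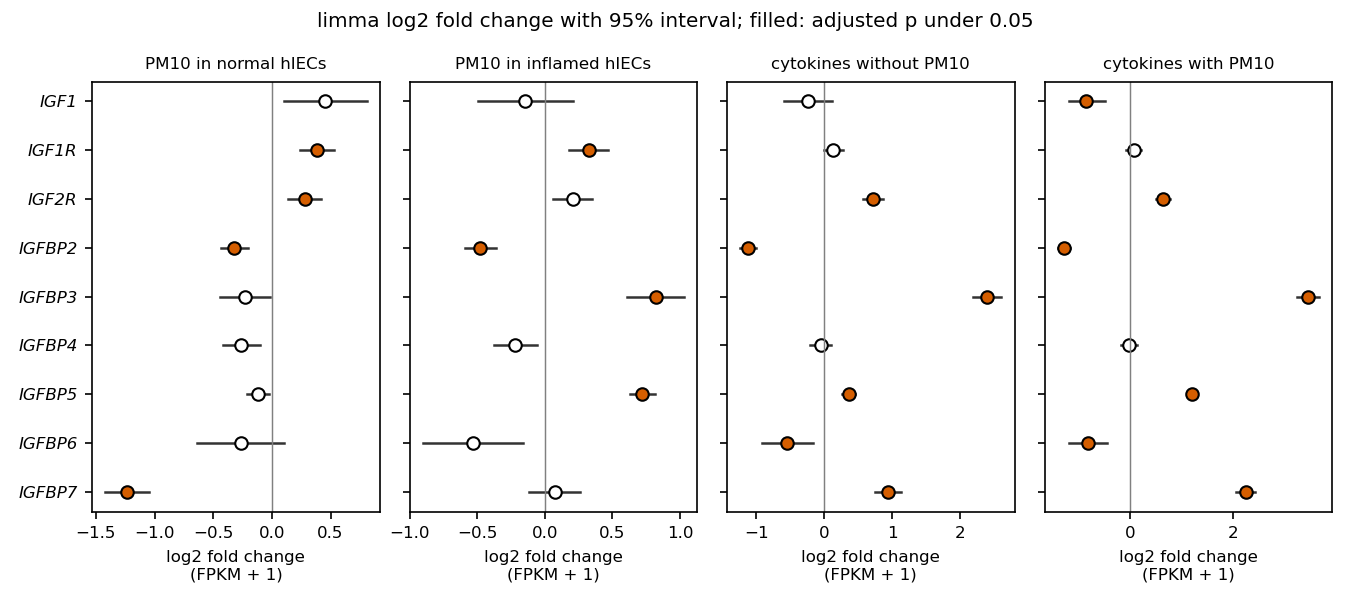
limma log2 fold changes of FPKM + 1 for the 9 tested members (rows) in 4 comparisons (panels, each with its own linear axis), with 95% intervals and filled points where the adjusted p was under 0.05. IGFBP3 is the highest member in both cytokine panels (2.40 and 3.45) and IGFBP7 the lowest with PM10 in normal hIECs (-1.23).

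IGFBP3, the main carrier of IGFs in blood and a gene with actions of its own on cell growth, showed the largest change of the set. It measured 445 and 358 FPKM in normal hIECs, 343 and 338 with PM10, 2116 and 2111 in inflamed hIECs, and 3717 and 3757 with both treatments. All libraries with cytokines lay far above all libraries without, and the 2 with both treatments lay above the inflamed ones. Cytokines raised IGFBP3 by 5.27-fold without PM10 (4.75 to 5.91-fold over the 4 pairs of libraries; log2 change 2.40, SE 0.0905, limma adjusted p = 9.36e-07) and by 10.97-fold with it (3.45, limma adjusted p = 1.28e-07). Among the 14206 tested genes ordered from the largest increase, it ranked 114 and 53 in these comparisons. PM10 raised it by a further 1.77-fold in inflamed hIECs (0.82, SE 0.0905, limma adjusted p = 0.00194), where it ranked 80 by the same order. In normal hIECs the PM10 difference was -0.23 (limma adjusted p = 0.148), and it passed the threshold only without normal library 2, at -0.38 (limma adjusted p = 0.00214). It shrank to -0.07 without normal library 1 and to -0.04 under quantile normalization.

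IGFBP5, which binds matrix as well as IGFs, followed the same order at a lower level. Its values were 115 and 117 FPKM in normal hIECs, 106 and 108 with PM10, 147 and 150.1 in inflamed hIECs, and 246 and 245 with both treatments. The groups did not overlap, and PM10 went with the lowest values in one setting and the highest in the other. PM10 raised IGFBP5 by 1.65-fold in inflamed hIECs (log2 change 0.72, SE 0.0407, limma adjusted p = 0.000169) and differed by -0.12 in normal hIECs (limma adjusted p = 0.112). Cytokines raised it by 1.28-fold without PM10 (0.36, limma adjusted p = 0.00025) and by 2.3-fold with PM10 (1.19, limma adjusted p = 4.25e-07).

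IGFBP7, a low-affinity relative of the other binding proteins found in matrix and vessel walls, was the member that PM10 lowered most. It stood at 580.0 and 486 FPKM in normal hIECs, 231 and 219 with PM10, 1019 and 1017 in inflamed hIECs, and 1085 and 1055 with both treatments. PM10-treated normal libraries were the lowest by a wide margin, whereas the 2 inflamed groups lay close together without overlapping. PM10 lowered IGFBP7 by 2.37-fold in normal hIECs (log2 change -1.23, SE 0.0802, limma adjusted p = 0.00058), where it ranked 32 of 14206 from the lowest, and this call was lost only in the fit on the 2 groups alone (limma adjusted p = 0.066). In inflamed hIECs the PM10 difference was 0.07 (95% interval -0.12 to 0.26, limma adjusted p = 0.574). Cytokines raised IGFBP7 by 1.91-fold without PM10 (0.94, limma adjusted p = 5.78e-05) and by 4.75-fold with it (2.24, limma adjusted p = 5.26e-07). The 7 smooth muscle markers, whose defining gene MYH11 was listed at 0, summed to 1674 to 1830 FPKM in normal hIECs, 1358 to 1383 with PM10, 2481 to 2518 in inflamed hIECs and 2511 to 2534 with both treatments. Of the 5 that were tested, 4 were lower with PM10 in normal hIECs and 0 were called with PM10 in inflamed hIECs by limma (1 at an unadjusted p under 0.05). ACTA2 and TAGLN carried most of the summed level, at means of 688 and 876 FPKM in normal hIECs. Cytokines gave 3 higher calls and 1 lower among the 5 without PM10, and 4 and 1 in its presence. ACTG2 was the lower one, at -1.51 and -0.78 on the log2 scale (limma adjusted p = 1.99e-05 and 0.000425). CNN1 did not pass the threshold without PM10 (-0.10, limma adjusted p = 0.211). The part of these markers in the IGFBP7 result was not tested.

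The effect of PM10 on these 3 binding proteins differed between inflamed and normal hIECs when the difference itself was tested. The interaction, the log2 change with PM10 in inflamed hIECs minus that in normal hIECs, was 1.05 for IGFBP3 (SE 0.128, limma adjusted p = 0.00619), 0.84 for IGFBP5 (SE 0.0575, limma adjusted p = 0.00128) and 1.31 for IGFBP7 (SE 0.113, limma adjusted p = 0.00178). Thus 3 of 9 members were called, all higher, where 6.6% of all tested genes were called (2.11% higher, 4.48% lower). IGFBP3 and IGFBP5 rose with PM10 in inflamed hIECs, whereas IGFBP7 fell with PM10 in normal hIECs. Of the 5 tested smooth muscle markers, 4 also had a called higher interaction and 0 a called lower one by limma (0 lower at an unadjusted p under 0.05; median 0.40), and of the 12 mesenchymal markers 1 was called higher and 6 lower (median -0.32), beside a median of -0.06 over all tested genes. Their part in these results was not tested. All 3 calls held in each of 18 alternative settings. By limma 0 members had a called negative interaction, and 1 had a negative interaction at an unadjusted p under 0.05 (IGF1).

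**Figure D4:**
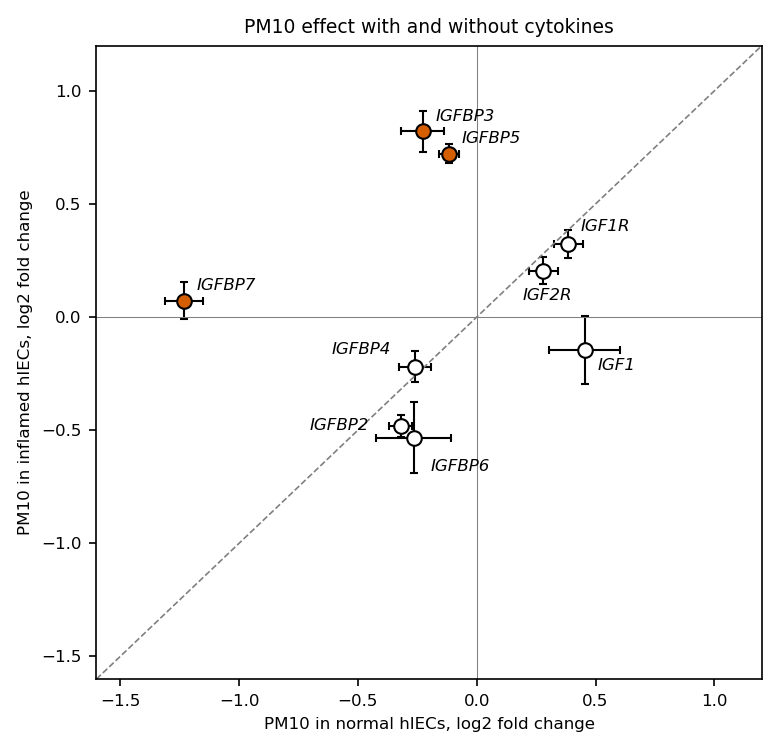
Log2 change of FPKM + 1 with PM10 in normal hIECs (horizontal) and in inflamed hIECs (vertical) for the 9 tested members, with SE bars, a dashed line of equal change and filled points where the limma interaction passed the threshold. IGFBP3, IGFBP5 and IGFBP7 lie above the line, with interactions of 1.05, 0.84 and 1.31, and the other 6 lie nearer to it.

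IGFBP2, a binding protein abundant in fetal tissue and the leading member in normal hIECs, fell with each treatment. It measured 685 and 658 FPKM in normal hIECs, 519.8 and 556 with PM10, 307 and 309 in inflamed hIECs, and 221 and 219.5 with both treatments. The 4 groups formed 4 steps with no overlap. Cytokines lowered IGFBP2 by 2.18-fold without PM10 (log2 change -1.12, SE 0.0487, limma adjusted p = 1.89e-06) and by 2.44-fold with it (-1.28, limma adjusted p = 7.05e-07). PM10 lowered it by 1.40-fold in inflamed hIECs (-0.48, limma adjusted p = 0.00144) and by 1.25-fold in normal hIECs (-0.32, limma adjusted p = 0.0121). The last call was lost without PM10-treated normal library 1 (limma adjusted p = 0.0875) and under quantile normalization, where the change was -0.13 (limma adjusted p = 0.116). The interaction of -0.16 did not pass the threshold (limma adjusted p = 0.214) except under quantile normalization, at -0.29 (0.0431).

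IGFBP6, which prefers IGF2 over IGF1, was lower with cytokines, and its level in normal hIECs was uncertain. It stood at 38.3 and 57.8 FPKM in the 2 normal libraries, 38.1 and 40.0 with PM10, 31.5 and 32.5 in inflamed hIECs, and 21.9 and 21.8 with both treatments. Normal library 2, the one with the largest mitochondrial share, stood above all others, and the normal libraries overlapped those with PM10. Cytokines lowered IGFBP6 by 1.79-fold with PM10 (log2 change -0.81, SE 0.159, limma adjusted p = 0.00299) and by 1.5-fold without it (-0.54, limma adjusted p = 0.0215). Leaving out 1 library moved the second difference from -0.83 (without normal library 1) to -0.25 (without normal library 2). That call was lost without either inflamed library (limma adjusted p = 0.0876 and 0.0674). With PM10 the differences were -0.53 in inflamed hIECs (limma adjusted p = 0.0638) and -0.27 in normal hIECs (limma adjusted p = 0.305). The first passed the threshold without either normal library (0.00133 and 0.00136, limma adjusted p) and the second without normal library 1, at -0.56 (limma adjusted p = 0.00388), while without normal library 2 the second turned to 0.02 (limma adjusted p = 0.816). The interaction of -0.27 (limma adjusted p = 0.525) passed only without normal library 2, at -0.56 (limma adjusted p = 0.0101), and turned to 0.02 without normal library 1 (limma adjusted p = 0.835).

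IGFBP4, the main substrate of the protease PAPPA, varied least. It measured 119 and 138 FPKM in normal hIECs, 106 and 107 with PM10, 123 and 123 in inflamed hIECs, and 105 and 106 with both treatments. The libraries with PM10 lay below those without, whether or not cytokines were present, while the normal and inflamed libraries overlapped. The PM10 differences of -0.26 in normal and -0.22 in inflamed hIECs did not pass the threshold (limma adjusted p = 0.0554 and 0.0697). They passed without normal library 1 (limma adjusted p = 0.00379 and 0.00501), where the first was -0.37 against -0.15 without normal library 2, and the second also without normal library 2 (0.00505). Cytokines gave differences of -0.06 without PM10 (95% interval -0.21 to 0.10, limma adjusted p = 0.514) and -0.01 with it (95% interval -0.17 to 0.14, limma adjusted p = 0.864). Without normal library 1 the first of these was -0.16 and passed the threshold (limma adjusted p = 0.008), and without normal library 2 it turned to 0.05.

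IGFBP1, an insulin-repressed gene of liver and decidua, was listed at 0 in all 8 libraries, where the lowest FPKM above 0 of any gene was 0.164 to 0.228. It therefore entered no comparison.

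Among 5 other ligands and receptors of the wider IGF and insulin family, 3 were tested, and all 3 fell with cytokines both without and with PM10. Over all tested genes 30.3% and 39.6% were called lower in these comparisons. With PM10 the share called lower was 3.72% in normal and 9.02% in inflamed hIECs. IGF2, the second ligand, stood at 161 and 223 FPKM in normal hIECs, 132 and 134 with PM10, 8.67 and 8.50 in inflamed hIECs, and 5.22 and 4.90 with both treatments, a cytokine change of -4.31 on the log2 scale without PM10 and -4.46 with it (limma adjusted p = 3.87e-07 and 2.27e-07). IGF2 thus exceeded IGF1 in all 4 libraries without cytokines and lay below it in all 4 with cytokines. In inflamed library 2 IGF2 and IGF1 were nearly equal, at 8.50 and 8.54 FPKM. IGF2 shares exon sequence with 4 annotated genes, of which the highest reached 40.2 FPKM, so its level is uncertain. INSR, the insulin receptor, stood at 1.91 and 2.13 FPKM in normal and 1.59 and 1.5 in inflamed hIECs (-0.25, limma adjusted p = 0.0316), a call lost without either inflamed library (0.0764 and 0.127) or normal library 2 (0.105). INS was listed at 0 in all libraries. With PM10 0 of the 3 were called in normal hIECs by limma (1 at an unadjusted p under 0.05). The IGF2 difference there, -0.51 (limma adjusted p = 0.0554), passed without normal library 1 (-0.75, 0.00209), without normal library 2 (-0.27, 0.0475) and with a minimum of 1 FPKM in all 8 libraries (0.0414). In inflamed hIECs 2 were called lower with PM10, of which IGF2 was lost without any 1 of the 4 inflamed libraries (limma adjusted p = 0.0769 to 0.0997).

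Of 12 proteases, protease inhibitors and partners of the binding proteins, 10 were tested. PAPPA, which cuts IGFBP4 and IGFBP5, stood at 2.46 and 2.00 FPKM in normal hIECs, 2.2 and 2.27 with PM10, 2.45 and 2.30 in inflamed hIECs, and 6.12 and 6.14 with both treatments. The 6 other libraries all lay below the 2 with both treatments. PM10 raised PAPPA in inflamed hIECs, with a log2 change of 1.078 (SE 0.0858, limma adjusted p = 0.000606), and the interaction was 1.07 (limma adjusted p = 0.00459). STC1, an inhibitor of PAPPA, was also higher with PM10 in inflamed hIECs, by 0.56 (limma adjusted p = 0.00455), and STC2, a second inhibitor, rose by 1.01 with cytokines (limma adjusted p = 1.93e-05). PAPPA2, a relative that cuts IGFBP3 and IGFBP5, stood at 1.23 and 1.02 FPKM in normal hIECs and 1.28 and 1.29 with PM10, and was listed at 0 in all 4 inflamed libraries.

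ADAM12, a membrane protease for IGFBP3 and IGFBP5, had an interaction of opposite sign to PAPPA. It measured 17.2 and 17.4 FPKM in normal hIECs, 40.8 and 40.2 with PM10, 28.8 and 30.2 in inflamed hIECs, and 38.3 and 38.8 with both treatments. PM10 raised it by 1.18 in normal hIECs (limma adjusted p = 0.000102) and by 0.38 in inflamed hIECs (limma adjusted p = 0.00316), with an interaction of -0.81 (limma adjusted p = 0.00171). HTRA1, a secreted serine protease for IGFBP5, fell by 2.12 with cytokines (limma adjusted p = 6.61e-07) and by 0.67 with PM10 in normal hIECs (limma adjusted p = 0.00409). ADAM9 rose by 0.67 with cytokines (limma adjusted p = 0.000225). In counts, 2 of the 10 were called higher and 1 lower with PM10 in normal hIECs, 5 and 2 with PM10 in inflamed hIECs, 4 and 2 with cytokines without PM10, and 5 and 2 with cytokines in the presence of PM10. Their median log2 differences were 0.01, 0.14, 0.07 and 0.10, beside 0.06, -0.01, -0.03 and -0.11 over all tested genes. The shares of all tested genes called in either direction were 9.23%, 15.2%, 56.2% and 65.4% in the same order.

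**Figure D5:**
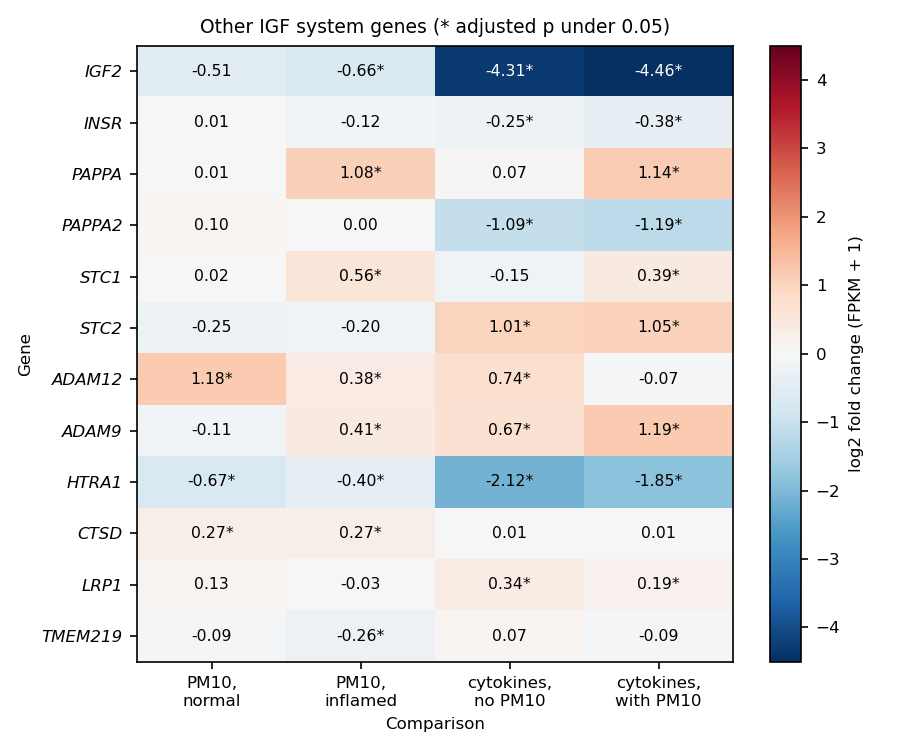
Log2 fold change of FPKM + 1 (colour and number, linear scale) for 12 other IGF system genes (rows) in 4 comparisons (columns), with a star where the limma adjusted p was under 0.05. IGF2 is lowest with cytokines (-4.31 and -4.46), and PAPPA is starred in the 2 comparisons that end in PM10-treated inflamed hIECs.

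Of 33 signalling genes downstream of IGF1R and the insulin receptor, 31 were tested, and 5 were called higher and 1 lower with PM10 in normal hIECs, 2 and 1 with PM10 in inflamed hIECs, 9 and 5 with cytokines without PM10, and 10 and 9 with cytokines in the presence of PM10. Over all tested genes 9.23%, 15.2%, 56.2% and 65.4% were called in the same order. The list's median log2 differences were 0.18, 0.08, 0.11 and 0.12 in that order, beside the medians over all genes given above. The calls with PM10 were fragile where this was checked. Those of PIK3R1, PIK3R2, FOXO1 and EIF4EBP1 in normal hIECs were each lost without at least 1 library. The same held for RPTOR, GSK3B and EIF4EBP1 in inflamed hIECs. The calls of MTOR and FOXO3 in normal hIECs (limma adjusted p = 0.0396 and 0.0257) were not checked in this way. FOXO1, a transcription factor that insulin and IGF signalling holds out of the nucleus, rose by 0.66 with cytokines without PM10 (limma adjusted p = 0.000525). Its relatives FOXO4 and FOXO3 went the other way, at -0.28 and -0.18 (limma adjusted p = 0.0182 and 0.0513). With PM10 present the cytokine differences were 0.38 for FOXO1, -0.62 for FOXO4 and -0.58 for FOXO3 (limma adjusted p = 0.00607, 0.000329 and 0.000222). PIK3R1, the main regulatory subunit of PI3K, fell by 0.64 with cytokines without PM10 (limma adjusted p = 0.000614) and by 1.15 with PM10 present (limma adjusted p = 2.36e-05). INPPL1, a lipid phosphatase of the same pathway, fell by 0.64 with cytokines (limma adjusted p = 0.000381). IRS1, the adaptor at the receptor, and IRS2 had interactions of -0.16 and -0.03 (limma adjusted p = 0.361 and 0.924), and by limma 0 genes of the list had a called positive (1 at an unadjusted p under 0.05) and 2 a called negative interaction.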

How the data were processed

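RNA-seq libraries without strand information were made from poly-A RNA of 8 samples. The authors removed adapters with Cutadapt 3.7, trimmed with Sickle 1.33, aligned to GRCh38 with HISAT2 2.2.1 and deposited FPKM from StringTie 2.2.0, with no further scaling between libraries. The annotation release is not given in the sources used here. GENCODE 44 held 99.5% of the identifiers and gave positions and overlaps.

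FPKM holds no read counts, so no count test was run. Values were compared as log2(FPKM + 1), which understates changes of low genes. limma 3.58.1 (R 4.3.3) with a variance trend was run on the 8 libraries together for the 14206 genes that reached 1 FPKM in 2 or more of them. Each of 5 comparisons had its own Benjamini-Hochberg adjustment, threshold 0.05. Fold values are ratios of mean FPKM. With 2 against 2 libraries an exact two-sided permutation test cannot go below 0.333. The fit was tested on simulated data.

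The members and the gene lists were chosen with earlier results of these data known. Named besides the members were up to 3 genes per list and direction with the largest called change in all 4 pairs of libraries, and the 3 genes most like each of the 3 members of widest range. IRS1, IRS2, MTOR, FOXO3, FOXO4, CYP1B1, NQO1, HMOX1 and GCLM values, INS, CYP1A1, CYP1A2, AHRR, and some comparisons of listed genes fall outside this rule and were chosen after values were seen. Alternatives covered pseudocounts of 0.1 and 0.5, filters, scaling, which groups were fitted, no trend, a replicate block, leaving out each library and, chosen after seeing the data, group weights. 1 gene counted in the lists is not reported here. Motif searches used RefSeq promoters. Plots were made with matplotlib 3.10.9.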

Additional observations from a re-analysis of the deposited data

Results flagged for a closer look

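Among the members, 3 differed in their PM10 effect between inflamed and normal hIECs by limma's interaction term. IGFBP7 had the largest difference, 1.31 on the log2 scale (adjusted p = 0.00178), with 225 FPKM against 533 in normal hIECs and 1070.0 against 1018 in inflamed hIECs, PM10-treated first. IGFBP3 differed by 1.05 (limma adjusted p = 0.00619), with means of 341 against 401 FPKM in normal and 3737 against 2114 in inflamed hIECs. IGFBP5 differed by 0.84 (limma adjusted p = 0.00128), with 107 against 116 and 246 against 149 FPKM.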

How the results depend on the processing

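No called change of a member turned its direction in any of the alternatives run. The calls for PM10 in normal hIECs depended most on the processing. Of 2 members called higher and 2 lower, quantile normalization left 1 and 1, a limma fit on the 2 groups alone 0 and 0 (3 higher and 3 lower at an unadjusted p under 0.05), and a fit without the trend and one with group weights 1 higher each. Over all genes, 1311 calls became 23 on the 2 groups alone and 604 with group weights. For PM10 in inflamed hIECs the 1 member called lower became 2 with a minimum of 1 FPKM in all 8 libraries, and 3 on the 2 groups alone and with group weights, which called 3472 genes in place of 2165, and IGF2R joined the members called higher under median centring, quantile normalization, rescaling without mitochondrial genes and group weights (4 in place of 3). Quantile normalization gave 1 negative interaction in place of 0. The cause of these shifts was not tested. Leaving out each library in turn gave, for PM10 in normal hIECs, 0 to 2 members higher, 1 to 4 lower and 194 to 2627 genes. For PM10 in inflamed hIECs it gave 2 to 4 higher, 1 to 3 lower and 675 to 2992 genes. Cytokines without PM10 gave 4 higher, 1 to 3 lower and 6282 to 7753 genes, cytokines with PM10 4 higher and 3 lower throughout, and the interaction 3 higher, 0 to 1 lower and 263 to 1266 genes. Scaling moved the share of higher calls over all genes from 59.7% to between 42.9% and 75.4% for PM10 in normal hIECs, from 40.8% to 50.8% at most for PM10 in inflamed hIECs and from 32% to 46.6% at most for the interaction. The replicate numbers paired no samples (correlations of deviations -0.00151 to 0.0793), and a replicate block changed no member's call, with 1051, 7957, 1966, 9264 and 762 genes called against 1311, 7988, 2165, 9286 and 937. Depth limits what can be said of IGFBP1, PAPPA2 and PDK4 where they were listed at 0. With 2 libraries a group, 1 library decides several calls near the threshold.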

Other observations

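Of 10 listed genes that FOXO factors are known to switch on, 8 were tested, and 4 were called higher and 0 lower with PM10 in normal hIECs, and 3 higher and 0 lower with PM10 in inflamed hIECs (limma; 0 lower also at an unadjusted p under 0.05 in both). Of these, PDK4, BCL6 and CCNG2 in normal hIECs and CCNG2, KLF6 and CITED2 in inflamed hIECs were each lost without at least 1 library (limma adjusted p up to 0.128 and 0.0767). With cytokines 2 were called higher and 4 lower, both without and with PM10, where 56.2% and 65.4% of all tested genes were called. With PM10 the shares over all genes were 9.23% in normal and 15.2% in inflamed hIECs. PDK4, which turns down glucose oxidation, stood at 1.1 and 1.03 FPKM in normal hIECs and 2.06 and 1.98 with PM10, and was listed at 0 in all 4 inflamed libraries. SESN3, a stress-induced brake on mTORC1, fell by 0.89 with cytokines without PM10 and by 1.16 with it (limma adjusted p = 2.05e-05 and 4.01e-06). BCL6, a transcriptional repressor, fell by 0.55 and 0.82 in the same comparisons (limma adjusted p = 0.000376 and 3.46e-05). CITED2, a transcriptional co-regulator, rose by 0.42 and 0.82 (limma adjusted p = 0.000668 and 1.56e-05), and KLF6 by 0.38 and 0.55 (0.00229 and 0.000297).

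Among 2521 genes whose group means ranged over at least 1 on the log2 scale, those closest to IGFBP3 over the 8 libraries were FAM129B (Pearson r = 0.9994), KCNMA1 (0.9992) and APBB2 (0.999). PHLDA2, CENPK and TRIP13 were closest to IGFBP7 (0.9912, 0.9912 and 0.9903), and PCOLCE, A2M and CCDC34 to IGFBP2 (0.9983, 0.9979 and 0.9975). Within the set, IGFBP2 and IGF2R ran most nearly opposite (r = -0.988) over the 8 libraries. The libraries form 4 pairs that share a treatment, so these values mostly describe agreement of 4 group means.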
